A study of Mus musculus with 3 samples.

Results

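Binding sites of the glucocorticoid receptor (GR) were examined around 3 mouse genes for transcription factors, Cebpb, Klf13 and Foxp1, in macrophages of wild-type (WT) and GRdim mice. The 3 stretches of the genome were chosen by measured values: each holds a peak of more than 5 RPM in the WT list whose counterpart in the GRdim list was lower or not listed. All peaks with their midpoint inside a stretch were taken, which gave 9 of the 1076 peaks of the WT list and 3 of the 822 peaks of the GRdim list, 12 of 1898 in all. RPM is the height of a peak in reads per 1000000 reads of its library. Because the stretches were picked on this contrast, heights and presence are given as a description and no test was made of them.

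The study located GR on DNA by ChIP-seq, in which DNA bound by the protein is pulled down with an antibody and sequenced. The cells were macrophages differentiated from femur bone marrow. WT animals carried the normal receptor gene (GR+/+) and were littermates of the GRdim animals, whose receptor has an altered dimer interface in its DNA-binding domain. Both genotypes were on a background crossed to BALB/c for at least 4 generations and were 12 weeks old. Per the labels' protocols cells were given 1 µM of the synthetic glucocorticoid dexamethasone overnight, bacterial lipopolysaccharide (LPS) at 100 ng/ml for 3 hours, or both, and the labels do not say which of these the ChIP libraries received. Each genotype has 1 ChIP library, so variation among mice cannot be estimated and each difference below is between 2 libraries. The libraries also stood apart on the sex chromosomes, with 26 WT peaks and 0 GRdim peaks on Y and 19 and 5 on X. This cannot be told apart from genotype. None of the 3 loci lies there, and ranks by height are given with and without these chromosomes. Macrophage identity could not be checked against marker genes, since binding and no expression was measured.

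GR is a steroid-activated receptor that enters the nucleus after it binds its hormone. It contacts DNA as a dimer at palindromic elements, and it also binds at single hexamers or together with other factors such as AP-1, NF-kB and C/EBP proteins. The GRdim mutation weakens the dimer contact within the DNA-binding domain. In macrophages much of the binding lies at enhancers away from gene starts, in chromatin opened by PU.1 and C/EBP factors. Cebpb encodes C/EBPbeta, a basic leucine zipper factor that takes part in macrophage differentiation and in the response to endotoxin. Klf13 encodes a zinc finger factor of the Krüppel-like family, which binds GC-rich boxes and is known for its part in chemokine gene expression in T lymphocytes. Foxp1 encodes a forkhead repressor known for its roles in B cell development and in monocyte differentiation.

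All peak positions are in build mm9. The Cebpb window runs over 190 kb (chr2:167450000-167640000) around an approximate gene position of 167514500. The Klf13 window covers 160 kb (chr7:70980000-71140000), with the gene at about 71031000 to 71084000. The Foxp1 window is the longest at 650 kb (chr6:98850000-99500000). In the RefSeq gene table of the later build GRCm38.p6, the neighbouring protein-coding genes are Tmem189 and Ptpn1 for Cebpb, Otud7a and Gm45988 for Klf13, and Gm765 and Eif4e3 for Foxp1. E030018B13Rik lies within Klf13. Exons and introns of mm9 were not used here, so no peak is called intronic or exonic.

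The promoters of Cebpb and Klf13 are shown because each gene has 1 start in the RefSeq table and an approximate mm9 position from which peaks can be measured. The 250 bases before each start were taken from RefSeq on GRCm38.p6 (Cebpb chr2:167688665-167688914, plus strand, and Klf13 chr7:63938916-63939165, minus strand). These coordinates cannot be compared with the mm9 positions of the peaks. Capitals mark the CRE core TGACG and the GC box GGGCGG, on either strand.
Cebpb: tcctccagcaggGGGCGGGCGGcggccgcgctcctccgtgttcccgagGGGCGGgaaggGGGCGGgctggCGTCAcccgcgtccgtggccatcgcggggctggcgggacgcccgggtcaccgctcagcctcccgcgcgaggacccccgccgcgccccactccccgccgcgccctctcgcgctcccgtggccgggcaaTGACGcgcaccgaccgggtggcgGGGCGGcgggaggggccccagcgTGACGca
Klf13: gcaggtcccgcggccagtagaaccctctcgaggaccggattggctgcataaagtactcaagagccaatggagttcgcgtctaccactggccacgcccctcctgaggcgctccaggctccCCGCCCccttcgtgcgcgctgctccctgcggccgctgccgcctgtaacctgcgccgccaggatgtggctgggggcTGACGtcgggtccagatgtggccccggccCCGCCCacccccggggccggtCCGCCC

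Neither stretch held the GR hexamer AGAACA, the full palindromic GR element, the AP-1 site TGANTCA, the C/EBP site TTGCGCAA or the PU.1 core GAGGAA, on either strand. The hexamer is part of the full element. Over 32851 RefSeq promoters of the same length these letters were found in 16.1% (GR hexamer), 0.00913% (full element), 6.75% (AP-1), 0.164% (C/EBP) and 23.3% (PU.1). The 250 bases before each of the 3 starts listed for Foxp1 held none of them either. The CRE core and the GC box were added after the sequences had been seen, the former because it is bound by CREB factors and the latter because Krüppel-like factors bind it. Cebpb held 3 CRE cores and 5 GC boxes, of which the first 2 boxes overlap, and Klf13 held 1 core and 3 boxes. Of the Foxp1 stretches, chr6:99028299-99028548 held 1 core and 3 boxes and chr6:99520994-99521243 held 1 box and no core. The stretch at chr6:99266516-99266765 held neither. A CRE core was present in 17.8% of all promoters and a GC box in 32.7%. The share of G and C was 81.6% before Cebpb and 71.6% before Klf13, against a median of 52.4%. Before the Foxp1 starts it was 74.0%, 60.8% and 45.2%, in the order given above. No listed peak overlapped the start of Cebpb or Klf13 as far as the approximate positions tell.

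Klf13 had the most WT peaks of the 3 loci and was without a GRdim peak. The WT list gave 4 peaks there. The tallest reached 6.42 RPM (chr7:71041835-71042034), about 10.9 kb above the lower end of the gene. The other WT heights were 1.28 RPM (chr7:71050168-71050367), 1.01 RPM (chr7:71056241-71056440) and 1.62 RPM (chr7:71085341-71085540). The first 3 peaks lay within the approximate gene span and the 1.62 RPM peak 1.4 kb above its upper end. Klf13 is on the minus strand in RefSeq, so that end is the side of its start and the 1.62 RPM peak is the one nearest to the promoter printed above. Together the peaks spanned 43.5 kb, with gaps of 8.33, 6.07 and 29.1 kb between midpoints. The nearest GRdim peak was 8003.6 kb from the tallest of them. Such runs, of at least 4 autosomal peaks of 1 list within 50 kb, were also found elsewhere. Of 4 WT runs, 2 held no GRdim peak, the one at Klf13 and one of 5 peaks on chromosome 6 (chr6:17681855-17722452). Of 3 GRdim runs, 2 held no WT peak.

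Heights in both lists rise in even steps, which were read as whole reads. On this reading the 6.42 RPM peak at Klf13 held 95 reads, with a 95% exact Poisson interval of 76.9 to 116 reads, or 5.19 to 7.85 RPM. The other 3 held 19, 15 and 24 reads. Intervals cover counting error only, since each genotype has 1 library. Only peak lists were examined here, so reads copied from the same molecule could not be told apart. The lowest height in the GRdim list was 1.05 RPM, and a weaker site would not be listed. If the site of the 6.42 RPM peak was left out of the GRdim list for its height alone, the WT height was more than 6.11 times the GRdim height. This limit takes the heights as listed and leaves out their counting error. The 3 lower peaks have intervals that reach down to 1.05 RPM, so at this depth their absence from the GRdim list does not separate the libraries. The 1.01 RPM peak stood below the lowest GRdim height, as did 261 WT peaks in all (24.3%).

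At Foxp1 both libraries listed 1 site and its height differed widely. The site stood at 5.95 RPM in WT (chr6:99125506-99125705) and at 1.32 RPM in GRdim (chr6:99125523-99125722). The WT peak held 88 reads (interval 70.6 to 108) and the GRdim peak 20 (12.2 to 30.9). These values brought the locus in and are given as a description. WT over GRdim was 4.51, with an exact counting interval of 2.75 to 7.74, and 2.17 on the log2 scale. The midpoints lay 17 bp apart, against a median of 23.5 bp over the 242 sites in both lists, so both heights come from nearly the same bases (183 of 200 bp).

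The ratio at Foxp1 was the highest of the 242 sites, which is the value that brought the locus in. The sites nearest to it in ratio were on chromosome 13 (chr13:5614123-5614322, 4.87 RPM in WT and 1.45 in GRdim, 3.36 times, with midpoints 111 bp apart) and on chromosome 17 (chr17:26649569-26649768, 3.92 and 1.52 RPM, 2.58 times). Among the 14 autosomal sites in both lists with a WT height of 3 RPM or more, WT over GRdim ranged from 0.611 to 4.51, with a median of 1.12. The Foxp1 site is among these 14 and gives their highest value. The 14 were picked by WT height alone, which favours high values of WT over GRdim. Of them 10 were taller in WT, against 97 of all 242 sites. A further WT peak in the Foxp1 window stood at 1.08 RPM (chr6:98990574-98990773, 16 reads), 134.9 kb from the site in both lists. It is 1 read above the fewest reads of any WT peak and was not listed in GRdim. Where either site lies relative to the 3 Foxp1 starts was not analysed here.

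At Cebpb the 1 site in both lists was not taller in WT. That site lay 39.5 kb below the approximate gene position, with 2.84 RPM in WT (chr2:167474876-167475075) and 3.56 RPM in GRdim (chr2:167474918-167475117). The WT peak held 42 reads (interval 30.3 to 56.8) and the GRdim peak 54 (40.6 to 70.5). GRdim over WT was 1.25, with a counting interval of 0.822 to 1.92, and the intervals of the heights overlap. By WT over GRdim, 0.798, it ranked 178 of 242.

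On the other side of Cebpb each list had at least 1 peak that the other list lacked. The WT list had 5.07 RPM at 65.1 kb above the gene position (chr2:167579468-167579667, 75 reads, interval 59.0 to 94.0) and 1.49 RPM at 86.4 kb (chr2:167600845-167601044, 22 reads). The GRdim list had 1.85 RPM at 28.0 kb (chr2:167542411-167542610, 28 reads, interval 18.6 to 40.5). The 5.07 RPM peak and the GRdim peak were 37.1 kb apart and are different sites. If the site of the former was left out of the GRdim list for its height alone, WT was more than 4.83 times as high there. For the GRdim peak the same reading, with the lowest WT height of 1.01 RPM, gives GRdim more than 1.83 times as high. Both limits take the heights as listed and leave out their counting error. The listed peak nearest to Cebpb itself was the GRdim peak at 28.0 kb. The 1.49 RPM peak has an interval (0.932 to 2.25 RPM) that reaches below the lowest GRdim height, so its absence from the GRdim list does not separate the libraries, and neither do the heights at the site 39.5 kb below the gene.

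**Figure D1:**
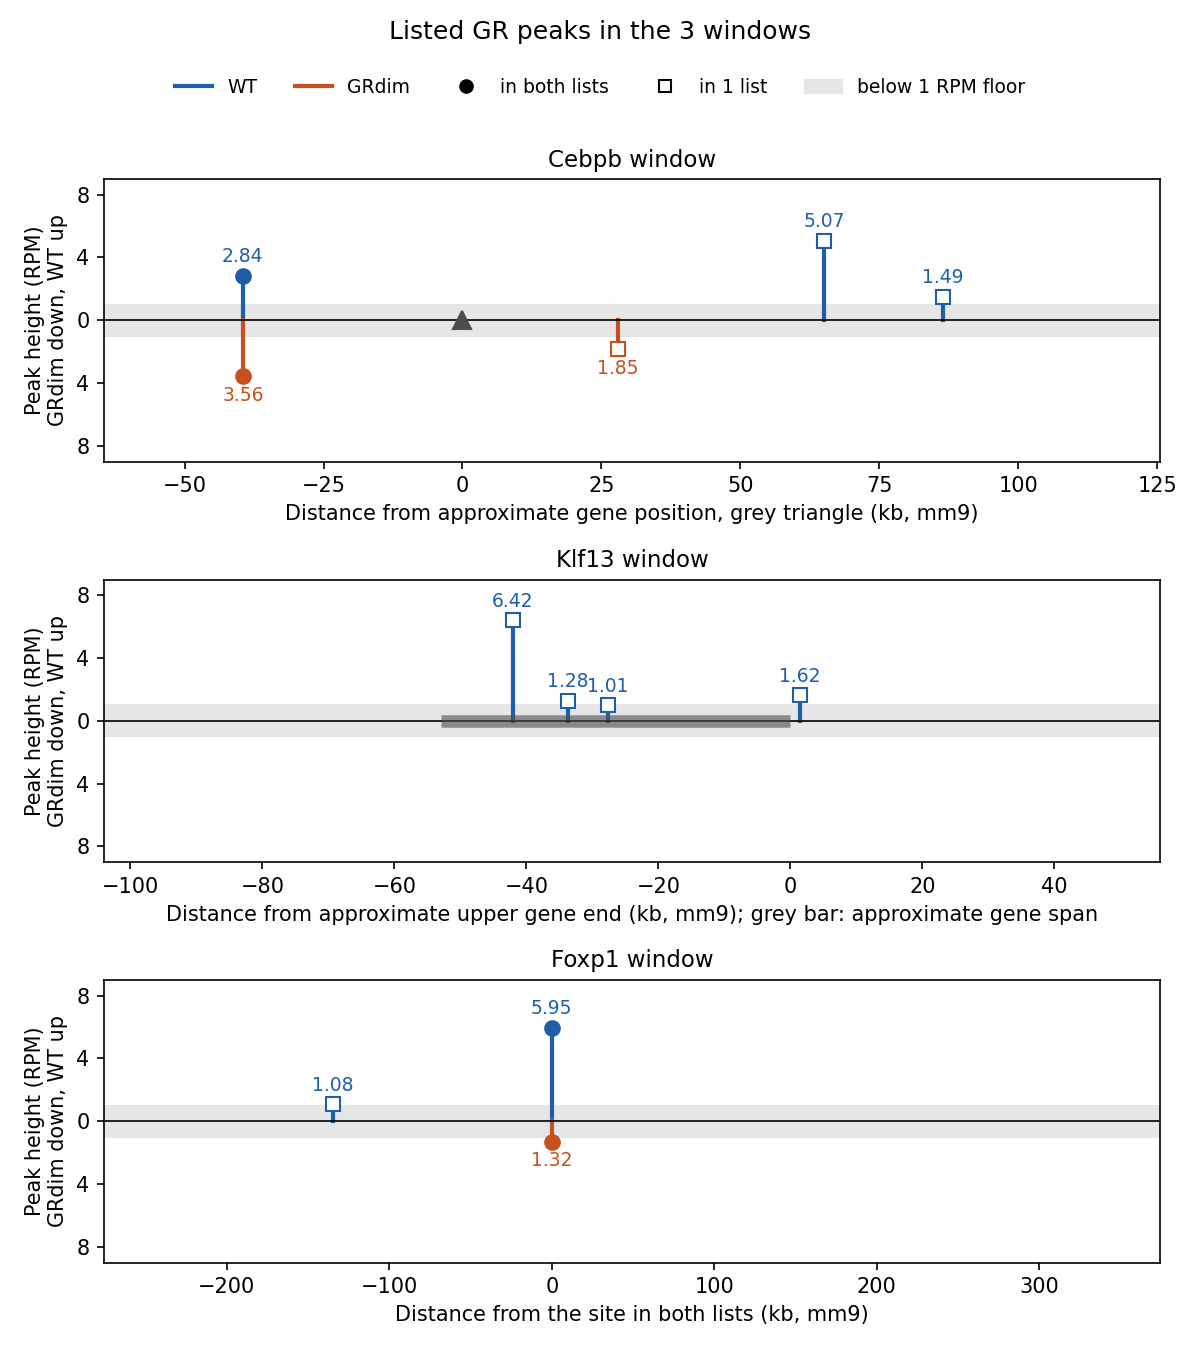
Height of each listed GR peak (RPM, vertical axis, WT upward and GRdim downward) against distance in kb within the Cebpb, Klf13 and Foxp1 windows, with filled circles for sites in both lists, open squares for peaks in 1 list and grey shading below the 1 RPM floor. The Klf13 panel holds 4 WT peaks and no GRdim peak, Foxp1 has 5.95 RPM against 1.32 RPM at 1 site, and Cebpb has 2.84 RPM against 3.56 RPM at its site in both lists.

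Summed over the peaks of each window, Klf13 held 10.33 RPM in WT over 800 bp of peaks (mean 2.58 RPM). Cebpb held 9.4 RPM over 600 bp in WT (mean 3.13) and 5.41 RPM over 400 bp in GRdim (mean 2.71). Foxp1 held 7.03 RPM over 400 bp in WT (mean 3.52) and 1.32 RPM over 200 bp in GRdim. The mean height per peak thus differed less between the genotypes at Cebpb than the sum, which also reflects that WT had 3 listed peaks there and GRdim had 2.

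The 12 peaks make up 10 distinct sites, 4 at Cebpb, 4 at Klf13 and 2 at Foxp1. Of the 9 WT peaks, 7 (77.8%) were not listed in GRdim, and over the whole WT list the share was 77.5%. For GRdim it was 1 of 3 peaks, against 70.6% of the whole list. The share of WT peaks without a GRdim counterpart at these loci was thus close to that of the list as a whole. Of the 2 sites in both lists, 1 was taller in WT, where 40.1% of the 242 sites were, and 1 had at least 2 times the height in WT, where 2.48% (6 sites) did. Both counts are the Foxp1 site, whose ratio brought the locus in, so they describe that choice. In the other direction 1 of the 242 sites reached 2 times and none of the members did. The median of WT over GRdim over all 242 sites was 0.952 (quartiles 0.79 and 1.12).

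Since height was used to choose the loci, the shares of tall peaks describe that choice. In the WT list 3 of the 9 peaks reached 3 RPM, 1 at each locus, where 4.55% of all WT peaks did. The tall peaks stood at ranks 7 (Klf13), 10 (Foxp1) and 12 (Cebpb) of the whole list and at ranks 3, 5 and 6 without the sex chromosomes. In the GRdim list 1 of 3 peaks reached 3 RPM, at the Cebpb site in both lists, where 1.82% of the list did. Of the 3 tall WT peaks 2 were not listed in GRdim, against 65% of the 40 autosomal WT peaks of this height. Of the 7 WT-only peaks, those of 6.42 RPM and 5.07 RPM were tall by choice, and the other 5 ranged from 1.01 to 1.62 RPM.

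**Figure D2:**
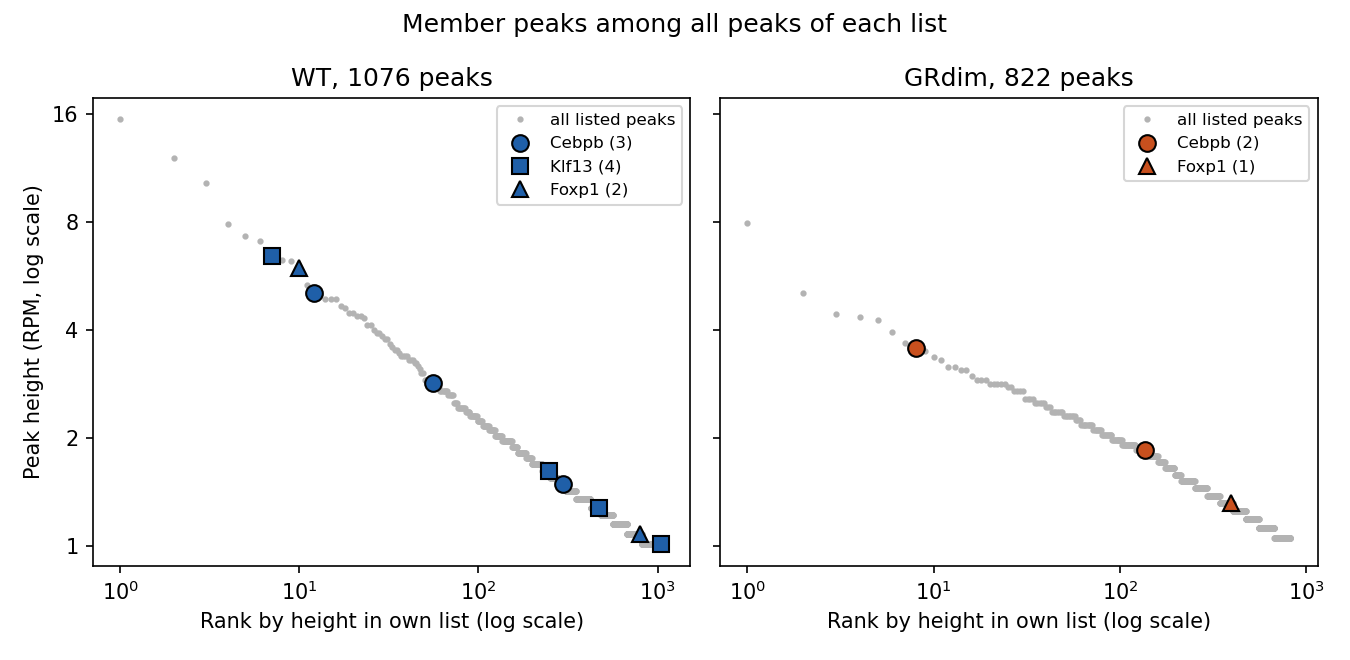
Height (RPM, log scale) against rank by height (log scale, ties in file order) for the 1076 WT and 822 GRdim peaks in grey, with the peaks of the 3 windows as coloured symbols. Each locus has 1 WT peak above 5 RPM and its other WT peaks from 2.84 RPM down to 1.01 RPM, while the GRdim peaks stand at 3.56, 1.85 and 1.32 RPM.

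Among autosomal WT-only peaks the Klf13 peak of 6.42 RPM was second in height of 790. It stood between peaks of 7.1 RPM (chr17:26672226-26672425) and 6.22 RPM (chr19:22022502-22022701). The Cebpb peak of 5.07 RPM was at rank 4, between that 6.22 RPM peak and one of 5.0 RPM (chr11:68910489-68910688). Heights next to these Klf13 and Cebpb peaks differ from them by 0.07 to 1.15 RPM. The neighbours were picked by height, so their closeness follows from that choice. The tall Foxp1 peak is in both lists and was not compared in this way.

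**Figure D3:**
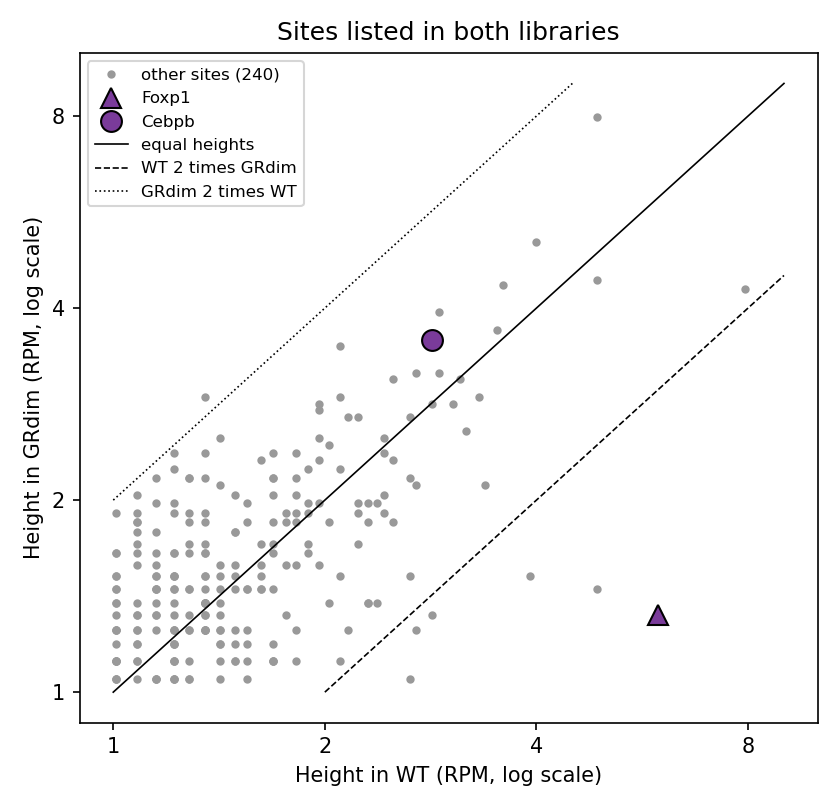
Height in GRdim against height in WT (RPM, both axes log scale) for the 242 sites in both lists, with lines for equal heights and for 2 times the height in either library. The Foxp1 site (5.95 and 1.32 RPM) lies far below the line for WT 2 times GRdim, and the Cebpb site (2.84 and 3.56 RPM) lies slightly above the line of equal heights.

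The spacing of peaks was then compared with the list. Of the 9 WT peaks, 6 had another WT peak within 100 kb (4 at Klf13 and the upper 2 at Cebpb). Over the 1031 autosomal WT peaks the share was 33.3%. Members were taken as all peaks of a chosen window, and these 6 count each other as neighbours. Their share thus describes that choice and was not tested. The windows end well short of the next peaks in most directions. The nearest WT peak beyond Cebpb stood at 2.03 RPM, 111.7 kb above the upper window edge (chr2:167751579-167751778), and was not listed in GRdim. Below Cebpb the next WT peak, of 1.01 RPM, was 242.9 kb from the edge. The next GRdim peaks around Cebpb were 2218.9 kb below and 2196.0 kb above. Around Klf13 the next WT peaks were 17004.8 kb below (1.35 RPM) and 2145.7 kb above (1.08 RPM). The next GRdim peaks there were 7941.7 kb below (1.12 RPM) and 11399.5 kb above (1.05 RPM). Around Foxp1 the next WT peaks were 975.6 kb below (1.42 RPM) and 3187.7 kb above (1.76 RPM), and the next GRdim peaks 1450.1 kb below (1.25 RPM) and 6924.2 kb above (1.38 RPM).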

How the data were processed

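A peak list for each of the 2 ChIP libraries (WT and GRdim) was analysed, and the input library was not used here. Reads were aligned with Bowtie to mm9, per the submitters' processing notes. Peak calling and any use of the input are not described in these sources. The deposited heights are taken as RPM computed by the authors, since the peak names carry the mark 1rpm and no height is below 1. All peaks are 200 bp wide and were printed with 1-based positions.

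Peaks overlapping by at least 1 base were counted as 1 site. The value of 1 read was the largest step between 0.02 and 1.2 RPM of which at least 99% of the heights are whole multiples within 0.1 read: 0.0676 RPM in WT (99.9% whole, about 14800000 reads) and 0.0659 RPM in GRdim (100.0%, about 15200000). Smaller steps would also give whole numbers, and no file states read numbers. Intervals are 95% exact Poisson, and for ratios exact binomial (Clopper-Pearson). The code was tested on simulated lists. The tools were scipy 1.17.1 and numpy 2.4.6 under Python 3.11.15, with figures by matplotlib 3.10.9.

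The loci, windows, approximate gene positions and comparisons were chosen with earlier results of these data known. All peaks of the windows were named, with the nearest peaks outside each window and the sites next to the tall ones in ratio or height. Alternatives were stricter heights, other overlaps, other window edges, lists of equal length and other scalings.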

Additional observations from a re-analysis of the deposited data

How the results depend on the processing

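In all, 48 alternative values were computed. Of these, 36 kept to the limits fixed for them, 12 moved, all of them numbers of peaks, and none reversed. Some of the 36 could not move, such as the 0 GRdim peaks at Klf13 under a stricter height. The 9 WT peaks became 5 at 1.5 RPM or more and 4 at 2 RPM or more, and the 3 GRdim peaks became 1 at 2 RPM or more, because these minimums remove low peaks. At either minimum the Foxp1 site drops out of the GRdim list. The 2 sites in both lists were the same number with a reciprocal overlap of 50% and with edges within 500 bp. The Foxp1 and Cebpb ratios stayed within their counting intervals with unscaled reads and with heights over the list median. Each of these changes rescales all ratios by a common factor close to 1, so the ratios could hardly have left the intervals. Windows narrower by 50 kb on each side lost the Cebpb site in both lists and the 1.49 RPM peak. Leaving out a library was impossible with 1 per genotype. A site under 15 reads in WT or 16 in GRdim goes unlisted, which bounds what absence can show.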
